A study of Mus musculus with 6 samples.

Results

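Mouse genes whose symbol ends in Rik were first known from full-length cDNA clones of the RIKEN Mouse Gene Encyclopedia project and were named after the clone, so the symbol states a library and a plate position and not a function. The genes described here are the abundant ones among them in libraries of epididymal cells sorted as clear cells. They were chosen by their deposited level: a row of the table of RPKM values (reads per kilobase of gene, scaled to library size) was taken if its name ends in Rik and its mean over the 2 libraries of the caput, the corpus or the cauda was at least 30 RPKM. Of the 37578 rows of that table, 2586 are Rik rows, 2143 of these had a read, and 143 passed the threshold, which is 5.53% of the Rik rows. Of the 34992 other rows, 2620 passed the same threshold, which is 7.49%. The 143 rows carry 142 distinct names, since 1500011B03Rik stands for 2 Ensembl genes. Each row was assigned to the region with its highest mean.

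The epididymis is the long coiled duct between testis and vas deferens where sperm become motile and fertile. Its proximal caput and middle corpus are rich in secretory principal cells that load the lumen with proteins that bind sperm, and its distal cauda stores sperm. Clear cells are a minority of the epithelium. They are packed with mitochondria and with the vacuolar proton pump, take up luminal material and acidify the lumen. A gene under a Rik name can be of any kind, from a housekeeping subunit that was small enough to escape earlier naming to a secreted protein made in 1 stretch of the duct.

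The study compared EGFP-positive cells sorted from the caput, the corpus and the cauda of untreated mice aged 12 weeks. Every mouse carried the same transgene, with EGFP under the ATP6V1B1 promoter, a V-ATPase subunit promoter that is active in clear cells. Each region gave 2 libraries, each from a pool of 12 epididymides, and no label states that the pools are of separate mice, so p-values cover the spread of these libraries alone, which may be technical. Reads in genes came to 20724911 to 24700717 per caput library, 18887128 to 21669090 per corpus library and 22593268 to 23532405 per cauda library.

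Fixed marker lists show what else the sorted cells carried. The 9 clear cell markers summed to 7424 and 7123 CPM (read counts scaled to library size, not to gene length) in caput, 1491 and 1774 CPM in corpus, and 685 and 867 CPM in cauda. The 16 markers of principal cells and luminal secretion summed to 9761 and 10980 CPM in caput, 78600 and 90710 CPM in corpus, and 146200 and 135300 CPM in cauda. All 9 clear cell markers were lower in every corpus and cauda library than in either caput library. The principal cell list was split: 6 of its 16 markers, among them the abundant Crisp1 and Cd52 that carry its sum, were higher in every corpus and cauda library than in caput, and 10, such as Lcn8, were lower. Sperm markers ranged from 3.30 to 215.6 CPM per library, basal cell markers from 55.3 to 300.6 CPM, phagocyte markers from 8.77 to 21.4 CPM and stromal markers from 16.1 to 138.1 CPM, and no listed marker was at 0 in every library. The part of these other cells in the levels below was not tested, and fewer cells of a type cannot be told apart from less RNA per cell in such libraries.

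Most of these genes no longer carry a Rik symbol in the reference, though a new symbol does not itself show that a function is known. In GENCODE M21 or the RefSeq table, matched by Ensembl identifier, symbol or a unique synonym, 142 of the 143 rows were found, and 104 of them carry a symbol that no longer ends in Rik. The other 38 keep a Rik symbol, and 28 of these are annotated as protein-coding. RefSeq gives 122 of 141 matched rows as protein-coding and 19 as long non-coding RNA. Of the rows highest in caput 16 of 18 have been renamed, of those highest in corpus 28 of 40, and of those highest in cauda 60 of 85. Current symbols are given in brackets below. The authors' counting took no account of strand, and the exons of 63 rows overlap another annotated gene, 55 of them on the opposite strand. Reads on shared positions can be left out as ambiguous where the authors' annotation holds both genes. They can be included in a value where it does not.

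The most abundant member of each region is a small secreted-type protein gene, and the start of its coding sequence is shown here because these are the most abundant of the region-restricted genes. The sequences are the first 300 coding bases, 5′ to 3′, from GENCODE M21 on GRCm38, with the start codon in capitals. In caput this was 9230104L09Rik (Cstdc2, a cystatin domain protein; cystatins are inhibitors of cysteine proteases), with a coding sequence of 402 bases in 3 exons over chr2:148846916-148850880 on the minus strand. In corpus it was 9230107M04Rik (Bsph2, a homolog of the seminal plasma proteins that bind the sperm membrane in cattle), with 396 coding bases in 5 exons over chr7:13554981-13571048 on the minus strand. In cauda it was D730048I06Rik (Pate6, of the prostate and testis expressed family of small cysteine-rich proteins), with 321 coding bases in 3 exons over chr9:35788967-35790016 on the minus strand. The annotation gives them 133, 131 and 106 codons before the stop.
Cstdc2 coding start: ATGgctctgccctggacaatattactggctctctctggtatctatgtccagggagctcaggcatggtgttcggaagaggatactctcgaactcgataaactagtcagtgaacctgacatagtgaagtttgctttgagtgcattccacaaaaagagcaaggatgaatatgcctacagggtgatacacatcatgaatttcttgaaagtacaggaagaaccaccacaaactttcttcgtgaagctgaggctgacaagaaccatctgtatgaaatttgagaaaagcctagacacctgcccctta
Bsph2 coding start: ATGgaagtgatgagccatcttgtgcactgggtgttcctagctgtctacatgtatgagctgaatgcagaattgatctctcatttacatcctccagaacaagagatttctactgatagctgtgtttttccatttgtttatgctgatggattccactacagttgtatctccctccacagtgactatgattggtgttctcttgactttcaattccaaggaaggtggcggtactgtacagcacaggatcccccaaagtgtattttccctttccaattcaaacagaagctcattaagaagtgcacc
Pate6 coding start: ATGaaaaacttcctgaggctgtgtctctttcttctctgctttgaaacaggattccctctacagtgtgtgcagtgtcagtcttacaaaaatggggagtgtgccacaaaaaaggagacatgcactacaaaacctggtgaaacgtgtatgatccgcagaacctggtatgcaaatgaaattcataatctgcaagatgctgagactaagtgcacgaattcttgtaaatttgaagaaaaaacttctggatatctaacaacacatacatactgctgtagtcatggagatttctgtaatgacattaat

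The 250 bases upstream of the same 3 genes are shown with those of 2410015M20Rik (Micos13, a subunit of the mitochondrial inner membrane organising complex). Micos13 is an abundant member with a low ratio, its cauda mean 1.21 times the next. It was taken as the most abundant of the mitochondrial genes grouped below. The windows are from RefSeq on GRCm38.p6 and are printed 5′ to 3′ along the gene, all on the minus strand. Capitals mark CG pairs and the letters TATAAA. The windows lie at chr2:148850935-148851184 for Cstdc2, chr7:13571068-13571317 for Bsph2, chr9:35790113-35790362 for Pate6 and chr17:56609772-56610021 for Micos13. They hold 2, 0, 0 and 19 CG pairs in that order, and TATAAA is found only in that of Bsph2, 30 bases before the start.
Cstdc2 upstream: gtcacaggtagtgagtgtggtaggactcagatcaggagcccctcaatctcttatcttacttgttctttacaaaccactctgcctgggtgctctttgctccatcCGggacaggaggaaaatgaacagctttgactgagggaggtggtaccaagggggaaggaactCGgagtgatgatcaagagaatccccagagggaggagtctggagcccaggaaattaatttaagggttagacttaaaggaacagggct
Bsph2 upstream: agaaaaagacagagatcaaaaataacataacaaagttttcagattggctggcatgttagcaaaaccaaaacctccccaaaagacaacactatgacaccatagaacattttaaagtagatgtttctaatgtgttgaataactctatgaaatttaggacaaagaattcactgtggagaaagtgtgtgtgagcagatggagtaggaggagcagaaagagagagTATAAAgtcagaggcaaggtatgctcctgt
Pate6 upstream: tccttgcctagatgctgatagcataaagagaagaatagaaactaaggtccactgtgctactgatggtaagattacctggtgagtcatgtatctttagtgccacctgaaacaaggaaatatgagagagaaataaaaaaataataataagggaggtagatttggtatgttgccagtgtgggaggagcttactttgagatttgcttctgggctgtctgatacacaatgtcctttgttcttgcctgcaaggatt
Micos13 upstream: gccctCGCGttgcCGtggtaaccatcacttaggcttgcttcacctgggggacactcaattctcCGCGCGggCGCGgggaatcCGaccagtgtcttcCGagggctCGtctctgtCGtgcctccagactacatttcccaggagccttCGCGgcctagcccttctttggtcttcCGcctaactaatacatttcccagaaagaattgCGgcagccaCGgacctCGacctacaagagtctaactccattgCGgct

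Of the 143 rows, 18 had their highest mean in caput (12.6%), 40 in corpus (28%) and 85 in cauda (59.4%). Of the 2620 other rows at the threshold, 771 (29.4%) were highest in caput, 703 (26.8%) in corpus and 1146 (43.7%) in cauda. These counts depend on how libraries are scaled. The deposited values carry the authors' scaling factors. With plain library totals instead, the same 143 rows were highest in caput for 39, in corpus for 55 and in cauda for 49, and 101 kept their region. The share of other rows highest in caput, corpus and cauda was then 56.4%, 26.1% and 17.4%. With size factors from DESeq2 all 143 rows kept their region, and with any 1 library left out 136 to 143 did. Together the 143 rows took 1.46% and 1.58% of the gene reads of the caput libraries, 1.79% and 1.84% of those of the corpus libraries, and 2.4% and 2.48% of those of the cauda libraries. Pate6 alone made up 36.4% and 37% of their reads in the cauda libraries, and Bsph2 10.6% and 11.7% in the corpus libraries.

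Most of the genes were not restricted to 1 region. Restriction is given as the ratio of the highest regional mean to the second highest, which the choice of the highest region sets above 1 and which is therefore a description. A low ratio does not show even levels, since a gene low in 1 region only also has one. For example, 1810062G17Rik had means of 8.62 RPKM in caput, 65.6 RPKM in corpus and 67.0 RPKM in cauda, a ratio of 1.02. The ratio is counted here over all rows. The ratio was at least 2 for 26 rows (18.2%), at least 5 for 11 (7.7%) and at least 20 for 4 (2.8%). Among other rows at the threshold it was at least 2 for 23.1%, at least 5 for 7.9% and at least 20 for 2.1%. The highest region held a median of 46.5% of the sum of the regional means for the Rik rows and 45.7% for the other rows. By region the Rik median was 54.4% for rows highest in caput, 45.8% for corpus and 46.6% for cauda. For other rows it was 49.6%, 44.0% and 45.1%. A ratio of 2 was reached by 10 of the 18 Rik rows highest in caput (55.6%), 6 of 40 in corpus (15.0%) and 10 of 85 in cauda (11.8%). Among other rows 41.4%, 15.5% and 15.5% reached it, so caput stood out in both sets. The libraries of the highest region differed by a median factor of 1.07, and in all but 2 rows by at most 1.32 times. The 2 exceptions, Cstdc2 and 5830403L16Rik, are both highest in caput.

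**Figure D1:**
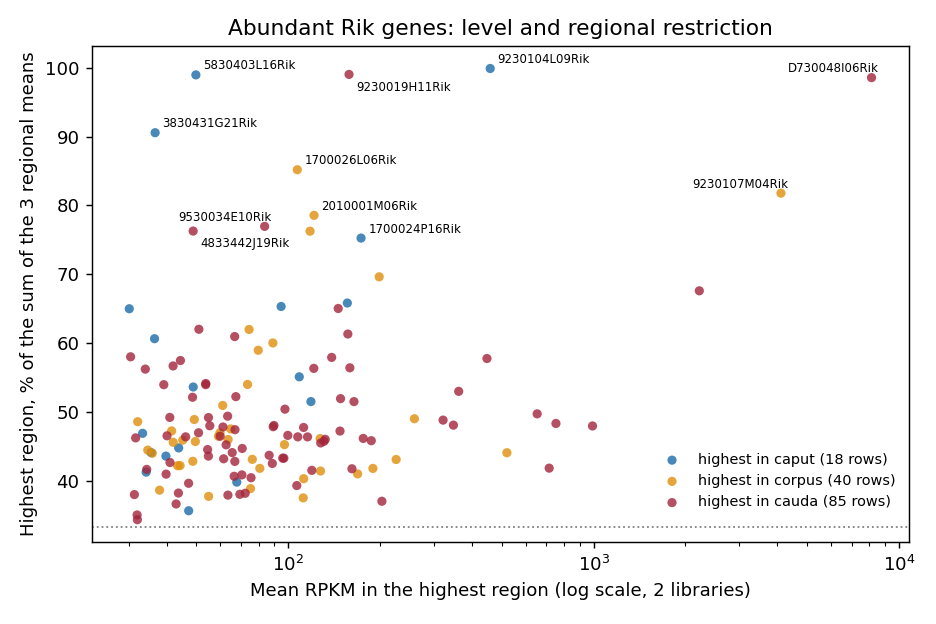
Each dot is 1 of the 143 Rik rows, placed by its mean RPKM in its highest region (log scale, 2 libraries) and by the percentage of the summed regional means found there, with equal levels in all regions marked by the dotted line. Most rows lie below 60%, and the 11 named rows, at least 5 times higher in 1 region than in the next, include the most abundant member of each region.

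Of the 11 restricted genes, 4 were highest in caput. Cstdc2 had 241 and 677 RPKM in caput, 0.167 and 0.301 RPKM in corpus, and 0.115 and 0.324 RPKM in cauda. These values rest on 7850 and 19334 reads in the caput libraries, 3 and 6 reads in corpus and 2 and 6 reads in cauda, so that the caput held 99.9% of the summed means and the order of the other regions was not detectable at this depth. 5830403L16Rik (Teddm2, of a family of transmembrane proteins of the epididymis) had 17.0 and 82.7 RPKM in the caput libraries, 0.253 and 0.385 RPKM in corpus, and 0.196 and 0.199 RPKM in cauda. Both genes were more than 2 times higher in the second caput library than in the first. In the same library 11 of the 16 principal cell markers were higher than in the first, such as Lcn8, a secreted lipocalin of the caput epithelium (277 and 926 CPM in the first and second caput library), and 5 were lower, such as Crisp1, a sperm-coating protein (4373 and 3286 CPM). All 10 sperm markers were higher in it, such as Prm1, a sperm protamine (7.15 and 46.0 CPM), and the part of these sources was not tested. Teddm2 shares exon positions with Glul on the opposite strand.

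The other restricted caput genes were even between replicates. 1700024P16Rik (Fyb2, an adaptor of T cell receptor signalling) had 180.4 and 166 RPKM in caput, 27.9 and 29.1 RPKM in corpus, and 27.7 and 29.2 RPKM in cauda, a ratio of 6.08. 3830431G21Rik (Plekhd1, a protein with a pleckstrin homology and a coiled-coil domain) had 40.8 and 32.6 RPKM in caput, 2.75 and 2.71 RPKM in corpus, and 0.714 and 1.46 RPKM in cauda. Fyb2 thus lay just under 30 RPKM in corpus and cauda, while Plekhd1 was nearly confined to caput, with 90.6% of its summed means there.

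The 3 restricted genes of the corpus did not reach a ratio of 20. Bsph2 had 274.5 and 244 RPKM in caput, 3774 and 4442 RPKM in corpus, and 616 and 694 RPKM in cauda. It was above 200 RPKM in every library, with the corpus mean 6.27 times the next. 1700026L06Rik (Spaca9, a sperm acrosome-associated protein also found in cilia) had 6.42 and 10.5 RPKM in caput, 99.7 and 114.5 RPKM in corpus, and 10.8 and 9.54 RPKM in cauda. 2010001M06Rik (Abhd11os, a non-coding RNA transcribed opposite to Abhd11) had 9.56 and 11.6 RPKM in caput, 108 and 135 RPKM in corpus, and 23.9 and 21.2 RPKM in cauda. Its exons overlap those of Abhd11, and reads on the shared positions cannot be assigned to either gene without strand. Just under this class, 4930432K09Rik (Prr27, a proline-rich protein) had 10.97 and 7.74 RPKM in caput, 111 and 125 RPKM in corpus, and 28.4 and 26.3 RPKM in cauda, a ratio of 4.31. 1700011H14Rik (Ccdc198, a coiled-coil domain protein) had 11.5 and 14.6 RPKM in caput, 222 and 175 RPKM in corpus, and 56.5 and 90.6 RPKM in cauda, a ratio of 2.7.

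In cauda the restricted genes were Pate6, 2 genes that still carry a Rik name and a mitochondrial enzyme. Pate6 had 51.9 and 59.0 RPKM in caput, 29.5 and 95.7 RPKM in corpus, and 8043 and 8226 RPKM in cauda. It was the most abundant of all 143 rows, and its cauda mean was 130 times the next. 9230019H11Rik, given as non-coding by GENCODE and as protein-coding by RefSeq, had 0.447 and 2.02 RPKM in caput, 0.0792 and 0.517 RPKM in corpus, and 152.5 and 164 RPKM in cauda. The cauda thus held 99.0% of its summed means, close to the 98.6% of Pate6. The long non-coding RNA 9530034E10Rik had 15.8 and 13.0 RPKM in caput, 9.65 and 11.7 RPKM in corpus, and 94.1 and 73.3 RPKM in cauda. 4833442J19Rik (Etfbkmt, a methyltransferase that modifies the electron transfer flavoprotein of mitochondria) had 8.52 and 9.08 RPKM in caput, 6.55 and 6.21 RPKM in corpus, and 47.7 and 49.98 RPKM in cauda. The exons of Pate6 overlap a predicted gene on the same strand, and those of 9230019H11Rik overlap B020014A21Rik on the opposite one.

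**Figure D2:**
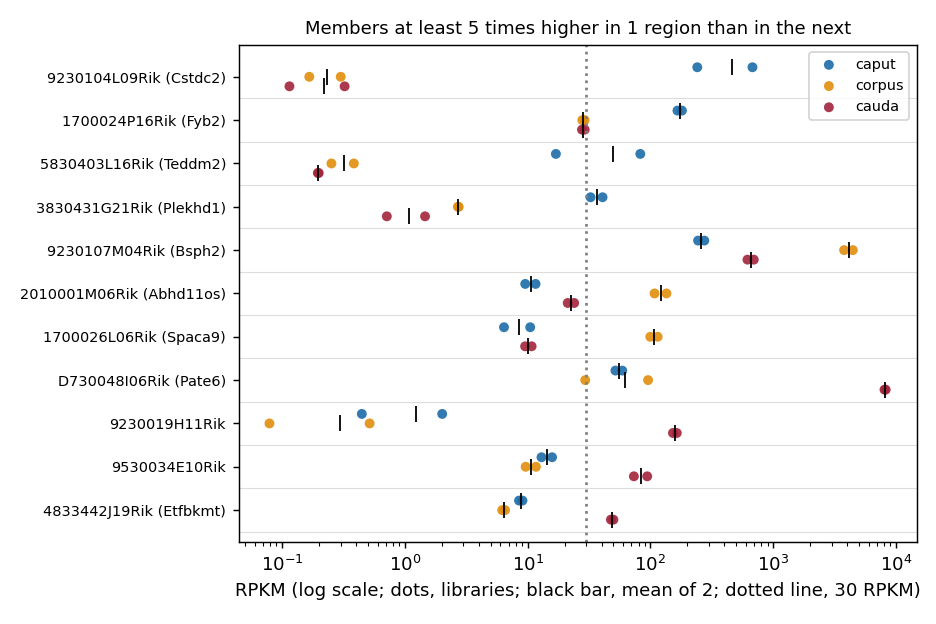
The RPKM of each library (dots, log scale) and the mean of 2 (black bars) for the 11 rows at least 5 times higher in 1 region than in the next, coloured by region, with the threshold of 30 RPKM dotted. Cstdc2, Teddm2 and 9230019H11Rik are at or below 2.02 RPKM outside their highest region, while Bsph2 stays above 200 RPKM in all 6 libraries.

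The genes at the upper end without sharp restriction were mostly higher in corpus and cauda than in caput. The second most abundant of the rows highest in cauda was the 577-base 1500011B03Rik gene, which matched no entry of the reference. It had 145 and 171 RPKM in caput, 819 and 994.5 RPKM in corpus, and 2124 and 2317 RPKM in cauda. The 1331-base gene of the same name had 23.0 and 19.3 RPKM in caput, 47.3 and 52.0 RPKM in corpus, and 38.5 and 37.2 RPKM in cauda, and was highest in corpus. 1810046J19Rik (Mien1, a membrane-anchored redox-like protein) had 178 and 184 RPKM in caput, 884 and 908 RPKM in corpus, and 961.5 and 1023 RPKM in cauda. The exons of Mien1 overlap Erbb2 on the opposite strand. 1110002B05Rik (Sptssa, a small subunit of serine palmitoyltransferase, the first enzyme of sphingolipid synthesis) had 110.3 and 113 RPKM in caput, 211 and 220.3 RPKM in corpus, and 439 and 456.5 RPKM in cauda. Sptssa and the shorter 1500011B03Rik had higher libraries in each more distal region, while Mien1 was about level between corpus and cauda.

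Several abundant rows highest in caput were below a ratio of 5. 1600029D21Rik (Plet1, a glycolipid-anchored surface protein of epithelial progenitors) had 156.2 and 156.2 RPKM in caput, 52.9 and 67.1 RPKM in corpus, and 20.8 and 21.5 RPKM in cauda. 2610019F03Rik (Tdrp, a nuclear protein linked to spermatogenesis) had 102 and 87.7 RPKM in caput, 33.6 and 35.0 RPKM in corpus, and 14.9 and 17.1 RPKM in cauda. In both genes the libraries of each more distal region were lower. 1700019E19Rik (Ift43, a subunit of the intraflagellar transport complex of cilia) had 106 and 111 RPKM in caput, 44.8 and 50.04 RPKM in corpus, and 37.9 and 44.3 RPKM in cauda. 9530068E07Rik, still under its clone name, had 122 and 115 RPKM in caput, 57.9 and 63.5 RPKM in corpus, and 50.1 and 52.1 RPKM in cauda. C030046I01Rik (R3hdm4, an R3H domain protein) was near level, with 71.1 and 64.6 RPKM in caput, 49.8 and 53.5 RPKM in corpus, and 49.9 and 52.0 RPKM in cauda.

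The rule fixes which region is highest and leaves the order of the other regions free, so only that remaining contrast was tested. All p-values are from edgeR's quasi-likelihood F test, adjusted by Benjamini-Hochberg over the 15816 genes tested, and a gene was called at an adjusted p under 0.05. Each fold change is a log2 value ± SE. All 143 rows passed the filter on low counts and were tested. Over all tested genes the caput differed from corpus in 65% (33.2% higher and 31.8% lower in caput) and from cauda in 66.9% (33.9% higher and 33% lower in caput). The corpus differed from cauda in 35.4% (17.3% higher and 18% lower in corpus). In total 120 of the 143 rows were called in their free contrast, a total that the sets below share unevenly.

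Rows highest in cauda were mostly lower in caput than in corpus. Of these 85 rows, 3 were higher in caput, 74 were lower and 8 were not called, with a median log2 fold change of -1.0 for caput over corpus. The other rows highest in cauda had 5.7% higher and 75.8% lower in caput, with a median of -0.79. Rows highest in corpus were mostly lower in caput than in cauda: of 40 rows, 1 was higher in caput, 35 were lower and 4 were not called, with a median of -1.01, against 8.8% higher, 73.3% lower and a median of -0.69 among other rows. Of the 18 rows highest in caput, 6 were higher in corpus than in cauda, 1 was lower and 11 were not called, with a median of 0.16 for corpus over cauda. The 6 were 3 without the second corpus library and 4 without the first corpus or the first cauda library. The other rows highest in caput had 34.0% higher, 13.0% lower and a median of 0.13. In each set the more frequent side was thus the same among Rik rows and other abundant rows.

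The direction of these free contrasts also depends on the scaling. The median over all tested genes was 0.04 for caput over corpus, 0.04 for caput over cauda and 0 for corpus over cauda, and plain library totals move these medians by 0.59, 0.86 and 0.27. With library totals, of the rows highest in cauda 14 were higher and 50 lower in caput than in corpus (median -0.41). Of the rows highest in corpus, 11 were higher and 19 lower in caput than in cauda (median -0.15), and of those highest in caput, 11 were higher and 1 lower in corpus than in cauda. Of all called genes, those higher in the first region made up 73.9% for caput over corpus, 78.7% for caput over cauda and 74.8% for corpus over cauda under library totals, against 51.1%, 50.7% and 49.0% with TMM scaling. Values for single genes below are relative to the scaled libraries.

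For several restricted genes no difference between the remaining regions was called. Fyb2 had 0.00 ± 0.08 for corpus over cauda (adjusted p = 1) and was called at 0.27 with library totals. Spaca9 had -0.33 ± 0.24 for caput over cauda (adjusted p = 0.246), was called at -0.74 without the second caput library and turned to 0.53, not called, with library totals. Pate6 had -0.24 ± 0.60 for caput over corpus (adjusted p = 0.754), a value that rests on its corpus libraries: it was called at -0.86 without the first and at 0.85, in the opposite direction, without the second. With library totals it was 0.36 and not called. 9230019H11Rik had 1.89 ± 1.20 for caput over corpus (adjusted p = 0.243) and was called at 2.66 without the first caput library. 9530034E10Rik had 0.37 ± 0.19 for caput over corpus (adjusted p = 0.114) and was called at 0.96 with library totals and at 0.43 with no filter on low counts. A missed threshold with SEs of this size does not show equal levels.

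For 4 of the restricted genes the remaining regions did differ. Bsph2 was lower in caput than in cauda, by -1.40 ± 0.11 on the log2 scale (adjusted p = 2.41e-06). Abhd11os was also lower in caput, by -1.16 ± 0.15 (adjusted p = 0.000144), and was no longer called with library totals, at -0.3. Etfbkmt was higher in caput than in corpus, by 0.40 ± 0.10 (adjusted p = 0.00497), against the direction of most rows highest in cauda. Plekhd1 was higher in corpus than in cauda, by 1.31 ± 0.29 (adjusted p = 0.0139), a call lost without either corpus library, at 1.32 each time, and with no filter on low counts, at 1.31. Of the other genes named for caput, Plet1 was higher in corpus than in cauda by 1.5 ± 0.11 (adjusted p = 1.24e-05) and Tdrp by 1.09 ± 0.10 (adjusted p = 2.95e-05). Ift43 (0.20 ± 0.11, adjusted p = 0.182) and R3hdm4 (0.02 ± 0.08, adjusted p = 0.898) were not called, and both were called higher in corpus with library totals, at 0.47 and 0.28. 9530068E07Rik, at 0.25 ± 0.08 (adjusted p = 0.0355), lost its call without the second corpus library or either cauda library, at 0.18 to 0.27.

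Other named rows highest in corpus or cauda were also called in their free contrast. The 577-base 1500011B03Rik was lower in caput than in corpus by -2.58 ± 0.13 (adjusted p = 4.09e-07) and Mien1 by -2.37 ± 0.08 (adjusted p = 3.12e-08). Ccdc198 was lower in caput than in cauda by -2.56 ± 0.30 (adjusted p = 0.0011) and Prr27 by -1.61 ± 0.15 (adjusted p = 2.21e-05). In smaller steps, 2310036O22Rik (Trir, a telomerase RNA component interacting RNase) was lower in caput than in cauda by -0.48 ± 0.07, 2810008D09Rik (Snhg20, a small nucleolar RNA host gene) by -0.60 ± 0.12 and 2610017I09Rik (Pantr1, a non-coding RNA beside a POU factor gene) by -0.68 ± 0.09. All 3 turned direction with library totals, at 0.37, 0.26 and 0.18. The exceptions to the common side included 0610010O12Rik (Cystm1, a small cysteine-rich tail-anchored membrane protein), with means of 117 RPKM in caput, 36.1 RPKM in corpus and 128 RPKM in cauda. It was named after its values were seen.

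By role, the abundant Rik genes fall into a few groups, made from the current symbols after the values were seen. The largest protein-coding group, 16 genes of mitochondria, had no member highest in caput, 5 highest in corpus and 11 highest in cauda. Its genes are assembly factors and small subunits of the respiratory chain and the ATP synthase, together with factors of the inner membrane and of mitochondrial RNA and DNA. Their median log2 fold change was -1.38 for caput over corpus, -1.72 for caput over cauda and -0.23 for corpus over cauda, against -1.0, -1.19 and -0.16 over all 143 rows. Each of these contrasts holds the region that the rule set as highest for some or all of the genes. The 143 rows also include 18 (12.6%) that were highest in caput, so this comparison is a description only. Etfbkmt was the only one of these 16 that reached a ratio of 2. 2010011I20Rik (Fam210b), highest in cauda with a ratio of 2.50, was not placed in the group. The 16 genes were also short, with a median length of 787.5 bases.

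Micos13 had 189 and 177.5 RPKM in caput, 639.5 and 604 RPKM in corpus, and 777.5 and 728.5 RPKM in cauda. 2310016M24Rik (Cox14, an assembly factor of cytochrome c oxidase) had 154 and 156 RPKM in caput, 503.5 and 509 RPKM in corpus, and 672 and 636 RPKM in cauda. 2010107E04Rik (Atp5mpl, a small subunit of the ATP synthase) had 338 and 375 RPKM in caput, 612 and 666 RPKM in corpus, and 715 and 716 RPKM in cauda. In these 3 genes every corpus and cauda library was above every caput library. 1500032L24Rik (Smdt1, the EMRE subunit of the mitochondrial calcium uniporter) had 147 and 151 RPKM in caput, 525 and 516 RPKM in corpus, and 518 and 504 RPKM in cauda. Corpus and cauda overlapped for Smdt1, and its assignment to corpus rests on a ratio of 1.02. In the free contrasts Micos13 was lower in caput than in corpus by -1.82 ± 0.08 (adjusted p = 1.02e-07), Cox14 by -1.77 ± 0.07 (adjusted p = 9.27e-08) and Atp5mpl by -0.90 ± 0.09 (adjusted p = 1.32e-05). Smdt1 was lower in caput than in cauda by -1.84 ± 0.07 (adjusted p = 4.23e-08).

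Of the 7 genes grouped as secreted or sperm-linked, 6 reached a ratio of 2 and 5 a ratio of 5, with 2 highest in caput, 3 in corpus and 2 in cauda. Since the group was made after the ratios were seen, this is a description only. Tdrp, linked to spermatogenesis and with a ratio of 2.76, was not placed in it. The 7 genes are Cstdc2, Teddm2, Bsph2, Prr27, Spaca9, Pate6 and 1700007K09Rik (Fam24b, of a family of small predicted secreted proteins). Fam24b had 14.8 and 8.62 RPKM in caput, 98.3 and 124 RPKM in corpus, and 149 and 169.5 RPKM in cauda. The 7 genes of endosomes and lysosomes included none with a ratio of 2. Among them 2400001E08Rik (Lamtor1, of the Ragulator complex that anchors mTORC1 signalling to lysosomes) had 51.0 and 51.3 RPKM in caput, 151 and 158 RPKM in corpus, and 181.5 and 171 RPKM in cauda. 0910001L09Rik (Lamtor4, of the same complex) had 47.8 and 50.7 RPKM in caput, 48.9 and 47.0 RPKM in corpus, and 96.5 and 83.1 RPKM in cauda. Lamtor1 was lower in caput than in corpus by -1.65 ± 0.08 (adjusted p = 1.5e-07), while Lamtor4 was not called, at -0.02 ± 0.10 (adjusted p = 0.862).

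All 5 genes grouped under the endoplasmic reticulum were highest in cauda, as were 59.4% of the 143 rows. Among the 5, 2310044H10Rik (Emc10) was near level, with means of 31.5 RPKM in caput, 29.8 RPKM in corpus and 32.1 RPKM in cauda. The median log2 fold change of the 5 was -1.54 for caput over cauda, a description only, since the rule set cauda as highest. In the free contrast, caput over corpus, it was -0.79, against -1.0 for all 85 rows highest in cauda. The 5 genes include Sptssa and 1810006K21Rik (Tmem258, a subunit of the oligosaccharyltransferase that glycosylates proteins), which had 42.4 and 48.6 RPKM in caput, 112 and 127 RPKM in corpus, and 144 and 152 RPKM in cauda. The 10 genes of RNA processing, DNA repair and telomeres were spread over all regions, 3 highest in caput, 2 in corpus and 5 in cauda. Of these 0610009D07Rik (Sf3b6, a spliceosome subunit) had 93.7 and 102 RPKM in caput, 219.6 and 232 RPKM in corpus, and 205 and 195.5 RPKM in cauda. 1110034G24Rik (Shld1, of the shieldin complex of double-strand break repair) was highest in caput, with 39.0 and 34.0 RPKM in caput, 9.72 and 12.5 RPKM in corpus, and 10.5 and 14.7 RPKM in cauda.

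None of the 19 rows that RefSeq gives as long non-coding RNA was highest in caput, 8 were highest in corpus and 11 in cauda. Over all 143 rows, 18 (12.6%) were highest in caput. The median log2 fold change of the 19 was -1.74 for caput over corpus and -2.25 for caput over cauda, against -1.0 and -1.19 over all 143 rows. Both contrasts hold the region that the rule set as highest for part of the 19, so this comparison is a description only. The row 2410006H16Rik had 19.7 and 20.8 RPKM in caput, 56.9 and 59.5 RPKM in corpus, and 149 and 143 RPKM in cauda. 9130230L23Rik, given as protein-coding by GENCODE, had 9.82 and 8.13 RPKM in caput, 92.3 and 85.9 RPKM in corpus, and 53.5 and 47.3 RPKM in cauda. Each region of these 2 rows was apart from the others in both libraries. Several of the 19 are named as host genes of small nucleolar RNAs, such as Snhg20 and Snhg18, or as transcripts opposite to another gene, such as Abhd11os, Hoxb5os (0610040B09Rik) and Sp3os (1700011J10Rik). Sp3os had 12.9 and 14.0 RPKM in caput, 74.8 and 74.1 RPKM in corpus, and 31.4 and 33.0 RPKM in cauda. Hoxb5os had 8.01 and 6.34 RPKM in caput, 41.2 and 29.0 RPKM in corpus, and 44.2 and 37.8 RPKM in cauda. Only Abhd11os and 9530034E10Rik of the 19 reached a ratio of 5. The 19 depend on the reference used. GENCODE also gives 9130409J20Rik (Tmem238l) and the 1331-base 1500011B03Rik as protein-coding. It gives 1810058I24Rik, which is not among the 19, as non-coding.

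The first 4 characters of a Rik name give the clone library, and the rule did not use them. Of 19 rows whose clones came from an epididymis library, 3 passed the threshold, which is 15.79%. Of 993 rows from testis libraries 14 passed (1.41%), and of the 1574 rows of all other series 126 passed (8.01%). The median of the highest regional mean was 4.83 RPKM in the epididymis series, 0.0987 RPKM in the testis series and 0.696 RPKM in the others. The 3 epididymis clones were the ones already described, Cstdc2 in caput, Bsph2 in corpus and 9230019H11Rik in cauda, each with a ratio above 5. Of the 14 testis clones, 4 were highest in caput, 6 were highest in corpus and 4 were highest in cauda, and 7 reached a ratio of 2.

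The 3 most abundant epididymis clones under the threshold were also uneven along the duct. 9230110F15Rik had 17.8 and 31.9 RPKM in caput, 0 and 0.0441 RPKM in corpus, and 0.0505 and 0 RPKM in cauda. 9230106D20Rik had 2.83 and 2.38 RPKM in caput, 18.4 and 24.4 RPKM in corpus, and 0.653 and 0.957 RPKM in cauda. 9230112D13Rik had 0.588 and 0.314 RPKM in caput, 0.926 and 1.16 RPKM in corpus, and 17.8 and 15.3 RPKM in cauda. Each was highest in a different region, as were the 3 above the threshold. The next in level, 9230113P08Rik, was not restricted, with 17.4 and 7.73 RPKM in caput, 4.57 and 7.57 RPKM in corpus, and 16.3 and 8.25 RPKM in cauda.

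The abundant Rik genes were shorter than other abundant genes. Their median deposited length was 1329 bases (quartiles 879.5 and 2411.5 bases, range 308 to 7521), against 2194.5 bases (quartiles 1385.5 and 3277.25 bases) for the other rows at the threshold. The difference was in the rows highest in corpus, with medians of 1248 bases for Rik and 1952 bases for other rows, and in those highest in cauda, with 1227 and 1894 bases. Rows highest in caput had medians of 2695.5 bases for Rik and 2792 bases for others. RPKM divides by length, so that the threshold takes fewer reads in a short gene. With 30 CPM in place of 30 RPKM, 308 Rik rows passed, with a median length of 2833.5 bases, against 3579.5 bases for other rows. The Rik rows were thus shorter than others under either unit, while the median length depended on the unit.

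With the deposited scaling, length moved with region in the Rik rows and in the others alike. Of 49 Rik rows under 1000 bases, 2 were highest in caput (4.1%), 12 in corpus (24.5%) and 35 in cauda (71.4%), against 13.9%, 31.2% and 55.0% of the 353 other rows of that length. Of 53 Rik rows of 1000 to under 2000 bases, 9.4% were highest in caput, 30.2% in corpus and 60.4% in cauda, against 19.4%, 30.7% and 49.9% of 811 other rows. Of 41 Rik rows of 2000 bases or more, 26.8% were highest in caput, 29.3% in corpus and 43.9% in cauda, against 38.8%, 23.6% and 37.6% of 1456 other rows. In each class the Rik rows were less often highest in caput and more often in cauda than the others, a difference that was not tested. Length differed little between classes of restriction, and this was not tested: the median was 1299 bases below a ratio of 2, 1371 bases from 2 to under 5 and 1407 bases at 5 or more.

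**Figure D3:**
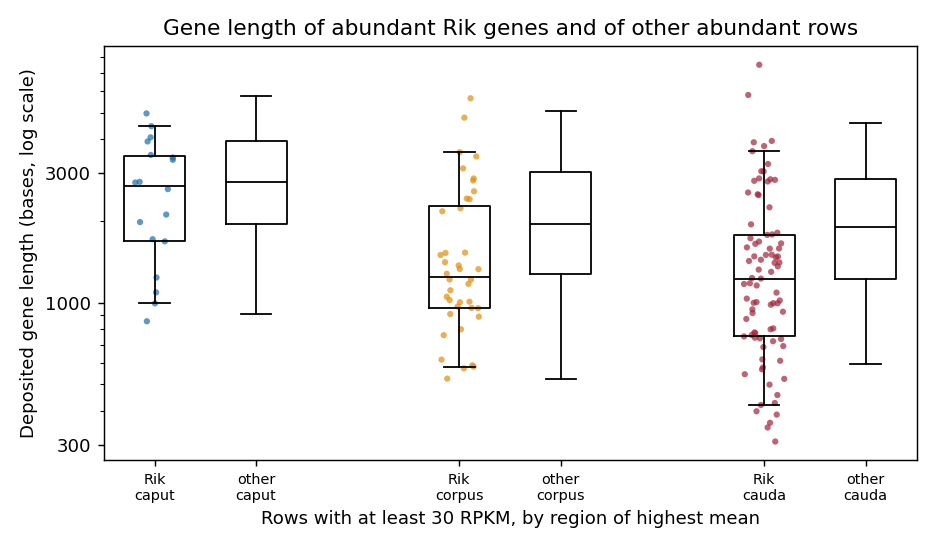
Deposited gene length in bases (log scale) of rows with at least 30 RPKM, by region of highest mean, for Rik rows (dots and left box of each pair) and other rows (right box); boxes show the quartiles and median, and whiskers the 5th and 95th percentiles. The Rik medians are 2695.5 bases in caput, 1248 bases in corpus and 1227 bases in cauda, against 2792, 1952 and 1894 bases for other rows.

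The upstream windows printed above differ in their CG pairs. A count over the members, which include these genes, gave fewer pairs in classes of higher ratio. CG pairs are thinned out in most of the mouse genome and kept in CpG islands, which cover the start of most widely used genes. Of the 143 rows, 121 matched the promoter table, and their 250-base windows held a median of 17 CG pairs, against 6 over all 27025 promoters of the table. The median was 18.5 in the 98 rows with a ratio under 2, 12.5 in the 12 rows from 2 to under 5 and 4 in the 11 rows at 5 or more. Under 5 CG pairs were found in 6.1%, 25% and 54.5% of these classes in the same order, against 44.5% of all promoters. The other rows at the threshold had the same order, with medians of 16, 11 and 8 pairs and 7.1%, 24.7% and 39.0% of windows under 5 pairs. The class of under 5 pairs was chosen after the values were seen.

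Among the 11 restricted genes Bsph2 and Pate6 had 0 pairs, 9230019H11Rik 1, Cstdc2 2, 9530034E10Rik 3 and Teddm2 4. Fyb2 and Abhd11os had 7, Plekhd1 and Etfbkmt 11, and Spaca9 15. The windows with fewest pairs were therefore those of the epididymis clones, of Pate6, of Teddm2 and of 1 non-coding RNA. The letters TATAAA, searched on both strands, were found in 6 of the 121 windows (5.0%), in 7.4% of the other rows at the threshold and in 13.0% of all promoters of the table. Of the 11 restricted genes Bsph2 alone had them.

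**Figure D4:**
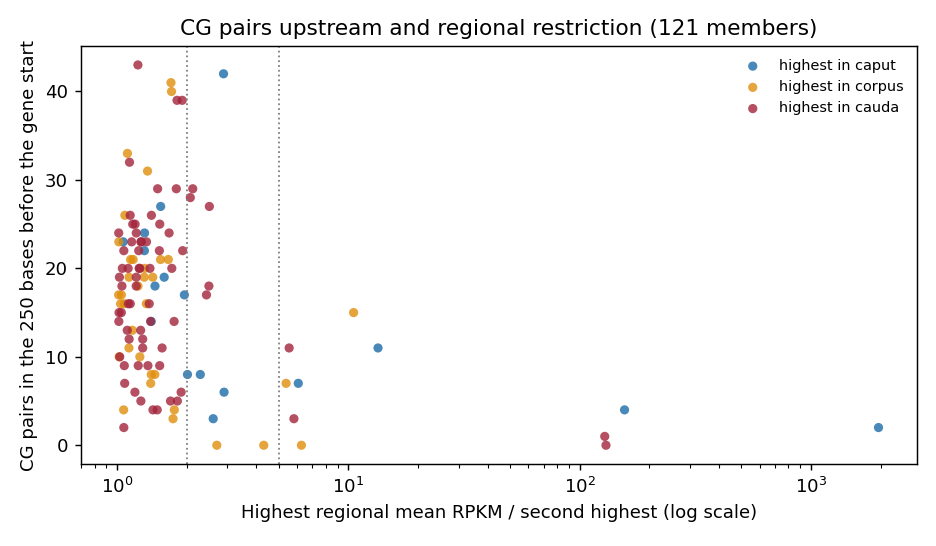
CG pairs in the 250 bases upstream of the gene start, against the ratio of the highest to the second highest regional mean RPKM (log scale), for the 121 members with a promoter sequence, coloured by region; dotted lines mark ratios of 2 and 5. Rows under a ratio of 2 spread from 2 to 43 pairs, and none of the 11 at 5 or more exceeds 15.

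The threshold cut through a continuous range. Just inside it were 4933407C03Rik at 30.2 RPKM in caput, and 2010011I20Rik at 30.5 RPKM, 5033414D02Rik at 31.4 RPKM and 9130401M01Rik at 31.7 RPKM in cauda. Just outside it were 2510039O18Rik at 29.7 RPKM in caput, 1110001A16Rik at 29.6 RPKM in cauda, and 2210404O07Rik at 29.5 RPKM and 1810019D21Rik at 29.3 RPKM in corpus. At 20 RPKM 195 rows would pass, and at 50 RPKM 100 would.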

How the data were processed

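RNA of sorted EGFP-positive epididymal cells was sequenced in 6 libraries (PicoRNA isolation, Clontech SMARTER v4 libraries, HiSeq2500, per the labels). For each library the authors deposited whole-number read counts per gene, counted without regard to strand per the deposited files' own naming, and a table of RPKM values with gene length (unit "other", bases). The submitters' processing notes name STAR, HTSeq, edgeR and mm9, with no version; the annotation is not given in the sources used here. Deposited RPKM values equal the counts per length and library size scaled by 1 factor per library: 1.329 and 1.387 for caput, 0.957 and 0.925 for corpus, 0.774 and 0.792 for cauda. Records in no gene were 6.67% to 9.48%, ambiguous ones 1.39% to 1.83% and ones without a unique position 33.11% to 38.59%; these stayed out of library sizes, and near-identical genes lose reads there. Replicates differed beyond sampling noise (chi-square per degree of freedom 9.57 to 17.18 by region), so each library counts once.

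Counts were tested with edgeR 4.0.16 (R 4.3.3): filterByExpr, TMM scaling, robust quasi-likelihood F tests with region as factor over all 6 libraries, two-sided, Benjamini-Hochberg adjusted. SEs are the log2 fold change over the square root of F, and approximate. The steps were tested on simulated data. Alternatives were library totals, DESeq2 (1.42.0) and its size factors, no filter, other thresholds, a replicate block, a fit on the 4 libraries compared and leaving out each library. Sequences and names come from GENCODE M21 and RefSeq on GRCm38, another build than the authors', and served only for names, overlaps and sequences.

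The members and lists were chosen with earlier results of these data known. Named per region were the 8 rows with the highest mean and the 5 with the largest share of the summed means, rows next to the threshold, the epididymis clones, and rows whose libraries differed by over 2 times in the highest region; examples of the role groups were chosen after their values were seen.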

Additional observations from a re-analysis of the deposited data

How the results depend on the processing

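The counts by region depend on the scaling and on the unit of the threshold. With library totals 49 Rik rows were highest in caput and 46 in cauda. With 30 CPM in place of RPKM 308 rows passed, 80 highest in caput, 85 in corpus and 143 in cauda, with a median length of 2833.5 bases. At 20 RPKM 30 rows were highest in caput and the median length was 1410 bases; at 50 RPKM these were 7 rows and 1164.5 bases. With 30 RPKM required in both libraries the median was 1311.5 bases. Without 1 library the rows numbered 142 to 145, with 18 to 19 highest in caput, 39 to 44 in corpus and 82 to 87 in cauda, 10 to 12 at a ratio of 5 or more, 116 to 119 called in the free contrast and a median length of 1324 to 1331 bases. Genes called then ranged from 8424 to 9981 for caput over corpus, 8885 to 10348 for caput over cauda and 3766 to 6024 for corpus over cauda, against 10275, 10581 and 5592 with all libraries. The cause was not tested.

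Of the values of named genes in their free contrast, 10 changed sign. Without 1 library Pate6 (D730048I06Rik) ranged from -0.86 to 0.85, Cstdc2 from -0.44 to 1.01 and R3hdm4 from -0.04 to 0.08, and only Pate6 was called at either end, at both. With library totals 2310036O22Rik, 2810008D09Rik and 2610017I09Rik turned to 0.37, 0.26 and 0.18, and Pate6 and Spaca9 (1700026L06Rik), not called in either setting, to 0.36 and 0.53. Of the rest 346 values kept their side of the threshold without a change of sign, 8 gained a call and 7 lost it. The labels do not say that replicate numbers mark a shared day or batch, and same-numbered libraries correlated in their deviations at 0.134 to 0.187. With the number as a replicate block 122 rows in place of 120 were called in the free contrast, and 10633, 10850 and 6090 genes for caput over corpus, caput over cauda and corpus over cauda. DESeq2 called 118 rows. With 2 libraries per region and 3 residual degrees of freedom, depth limits the order of regions in which a gene has under 10 reads.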
